A study of Mus musculus with 2 samples.

Results

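The genes described here are 10 genes of mononuclear phagocytes, Cx3cr1, C1qa, C1qb, C1qc, Emr1, Lyz2, Cd68, Spi1, Tyrobp and Fcer1g, which are 10 of the 33456 genes listed for a mouse yolk sac (YS) single-cell library. They were chosen by name, and all 10 were found. Values were read in 775 YS cells, the barcodes that reached the UMI minimum of the library and had at most 10% of UMIs from mitochondrial genes. A UMI, or unique molecular identifier, counts 1 captured transcript. The YS cells came from C57BL/6 yolk sacs of embryos at E9.5 and E10.5, pooled in equal numbers, dissociated with collagenase, frozen and thawed. Dead cells and about 70% of the Ter119+ (erythroid) cells had been sorted out. The stages cannot be told apart in the pool. The other library held embryoid body (EB) cells, C57BL/6 embryonic stem cells taken through 4 days of differentiation that favours hemangiogenic mesoderm, freed with Accutase, frozen, thawed and sorted for live cells. Both went through 10x Genomics Chromium and a HiSeq2500. Each source was 1 library, so there are no replicates, no test between groups and no p-value.

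Macrophages of the yolk sac are the first macrophages of the embryo, and microglia, the macrophages of the brain, descend from them. They arise from erythro-myeloid progenitors, which also give granulocytes, mast cells, megakaryocytes and red cells. The transcription factor PU.1, encoded by Spi1, is required for the lineage, and signaling through CSF1R, the receptor for CSF1 and IL-34, sustains it. On the way, progenitors lose KIT and gain CX3CR1 and F4/80. The 10 genes were read in 2 sets of 5. The early set (Spi1, Tyrobp, Fcer1g, Lyz2 and Cd68) is one that progenitors and other myeloid cells also use in part. The late set (Cx3cr1, C1qa, C1qb, C1qc and Emr1) was taken as genes gained on the way to, or in, differentiated macrophages.

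In the early set, Spi1 lies on chromosome 2 (91082390 to 91115756, plus strand, mm10), and Tyrobp, on chromosome 7 (30413760 to 30417585, plus strand), encodes the adaptor DAP12. Fcer1g, on chromosome 1 (171229572 to 171234365, minus strand), encodes the common gamma chain of Fc receptors. Both adaptors carry immunoreceptor tyrosine-based activation motifs (ITAMs). Lyz2, on chromosome 10 (117277331 to 117282321, minus strand), encodes lysozyme, and Cd68, on chromosome 11 (69664213 to 69666153, minus strand), a glycoprotein of late endosomes and lysosomes. In the late set, Cx3cr1, on chromosome 9 (119901616 to 120069879, minus strand), encodes the receptor for fractalkine. C1qa, C1qb and C1qc encode the A, B and C chains of C1q, the recognition part of the first complement component. They lie side by side on the minus strand of chromosome 4, in the order C1qb, C1qc and C1qa, within 18675 bases (136880129 to 136898803). Emr1, named Adgre1 in GENCODE M21, lies on chromosome 17 (57358691 to 57483527, plus strand) and encodes F4/80. All 10 are protein-coding. Cx3cr1 shares exon sequence with Gm33858 and Csf1r with Hmgxb3, each on the other strand. Whether counting used strand is not given in the sources used here, so reads of such pairs cannot be told apart.

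The start regions of the genes are shown because the late genes were read together in the same cells. RefSeq (GRCm38.p6) start regions, 250 bases before to 50 bases after the gene's start, were matched for 6 of the 10 genes (Fcer1g, Lyz2, Cd68, Cx3cr1, C1qb and C1qc). C1qa, Emr1, Spi1 and Tyrobp had no entry. The PU.1 core GAGGAA and the RUNX core TGTGGT were searched on both strands (TTCCTC and ACCACA on the other strand), and no match overlaps another. The 4 regions below are written 5' to 3' on the gene's strand, which is the minus strand for each, with the matches in capitals. They lie at chr4:136886151-136886450 (C1qb), chr4:136892865-136893164 (C1qc), chr9:120068247-120068546 (Cx3cr1) and chr11:69666121-69666420 (Cd68).
C1qb: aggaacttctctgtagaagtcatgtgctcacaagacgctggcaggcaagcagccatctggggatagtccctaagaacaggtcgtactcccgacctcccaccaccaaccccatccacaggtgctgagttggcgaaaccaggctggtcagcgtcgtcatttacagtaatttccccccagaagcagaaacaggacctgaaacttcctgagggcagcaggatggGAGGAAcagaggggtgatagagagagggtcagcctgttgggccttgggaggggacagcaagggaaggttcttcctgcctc
C1qc: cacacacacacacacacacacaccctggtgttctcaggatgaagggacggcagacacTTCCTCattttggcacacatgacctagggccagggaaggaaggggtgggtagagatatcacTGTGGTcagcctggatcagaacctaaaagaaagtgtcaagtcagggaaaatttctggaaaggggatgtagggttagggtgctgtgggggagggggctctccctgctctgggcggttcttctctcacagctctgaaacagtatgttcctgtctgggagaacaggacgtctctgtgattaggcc
Cx3cr1: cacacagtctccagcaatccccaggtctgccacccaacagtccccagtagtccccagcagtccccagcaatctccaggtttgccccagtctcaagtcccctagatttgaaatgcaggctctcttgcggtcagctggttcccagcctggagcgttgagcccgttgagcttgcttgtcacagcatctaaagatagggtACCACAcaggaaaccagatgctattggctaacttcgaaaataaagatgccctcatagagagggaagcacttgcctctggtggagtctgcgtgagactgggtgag
Cd68: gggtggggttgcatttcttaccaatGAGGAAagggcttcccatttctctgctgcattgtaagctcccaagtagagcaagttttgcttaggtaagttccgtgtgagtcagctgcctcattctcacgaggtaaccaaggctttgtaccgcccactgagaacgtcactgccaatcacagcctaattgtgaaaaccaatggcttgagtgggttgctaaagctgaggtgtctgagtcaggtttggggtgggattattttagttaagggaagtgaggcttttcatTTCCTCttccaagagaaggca
The PU.1 core was found once in the C1qb region, starting 30 bases before the gene's start. C1qc held 1 match, 193 bases before the start, and Cd68 held 2, at 225 bases before and 30 bases after it. The RUNX core stood 132 bases before the start of C1qc and 54 bases before that of Cx3cr1, and also in the regions of Fcer1g and Lyz2, which are not printed. Of all 32851 regions of the same length 28.3% held the PU.1 core and 16.8% the RUNX core. Distances are from the RefSeq start, which can differ from the GENCODE one. The RefSeq starts of Cx3cr1 and C1qc lie inside the GENCODE spans of these genes, and so does the whole Cx3cr1 window. The matches are letters in a window and not measured binding.

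The YS library held 30294678 UMIs and the EB library 73915225, and the kept cells had a median of 28461 UMIs in YS (6557 to 114332) and 25547 UMIs in the 1878 EB cells (6233 to 99304). The libraries shared 2 cell barcodes. An empty YS droplet held 54.2 UMIs on average, 0.191% of a median cell. Levels are CPM (counts scaled to a total of 1000000), with UMIs summed over the cells of a group. All intervals are 95% intervals (exact Poisson for levels, Clopper-Pearson for shares, exact conditional binomial for ratios). Only counting error enters them.

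At least 1 Csf1r UMI was seen in 126 of the 775 YS cells (16.3%, 13.7 to 19.0), called Csf1r-positive here. Their median depth was 38843.5 UMIs, against 26895 UMIs in the 649 Csf1r-negative cells. In erythroid-like cells, a type that should lack the gene, 1 of 153 had a Csf1r UMI (median depth 33128 UMIs), and free RNA as measured in the empty droplets would put 1 in 0.0550% of cells. All 10 genes were at least 2-fold higher in Csf1r-positive cells than in Csf1r-negative cells. Of the 13469 genes that had 10 or more UMIs over both groups, 9.41% were higher by that much and 13.5% lower, and the median log2 ratio was 0.10, against 5.06 over the 10 genes.

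The early genes were present in both groups and 5.58-fold to 21.0-fold higher in the Csf1r-positive cells. Spi1 had a median of 12.5 UMIs per Csf1r-positive cell (0 to 63) and 0 per Csf1r-negative cell (0 to 39). Its level was 377 CPM (359.8 to 395) against 67.0 CPM (63.4 to 70.8), 5.62-fold higher (5.23 to 6.04). Tyrobp stood at 433 CPM (414 to 452) in Csf1r-positive and 41.4 CPM (38.5 to 44.3) in Csf1r-negative cells, and Fcer1g at 683 CPM (659.8 to 707) and 122 CPM (118 to 127). The per-cell ranges of these genes overlapped, and among the 649 Csf1r-negative cells 158 also had Spi1, 182 Fcer1g and 134 Tyrobp. Lyz2 was 178 CPM (167 to 191) in Csf1r-positive and 15.6 CPM (13.9 to 17.4) in Csf1r-negative cells. The near-identical gene Lyz1 had 0 UMIs in both, so reads shared by the copies could have been assigned to Lyz2. Cd68 was 63.9 CPM (56.9 to 71.5) in Csf1r-positive and 3.04 CPM (2.32 to 3.92) in Csf1r-negative cells, the widest ratio of the set at 21.0 (15.8 to 28.2).

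The late genes had few UMIs outside the Csf1r-positive cells, with ratios from 53.2 to 254. C1qb had 2323 UMIs in Csf1r-positive cells (485 CPM, 465 to 505) and 37 in Csf1r-negative cells (1.91 CPM, 1.34 to 2.63), a ratio of 254 (184 to 362). C1qa was 122 CPM against 0.516 CPM in Csf1r-negative cells (ratio 237, 128 to 496), and C1qc was 296 CPM against 1.44 CPM (205, 141 to 309). Emr1 had 95 UMIs in Csf1r-positive and 2 in Csf1r-negative cells, a ratio of 192 (51.8 to 1611). Cx3cr1 was 118 CPM in Csf1r-positive and 2.22 CPM in Csf1r-negative cells (53.2, 39.0 to 74.3), and 1 Csf1r-negative cell held 41.9% of the 43 UMIs there. Over the 126 Csf1r-positive cells, C1qc was seen in 44.4%, Cx3cr1 in 42.9%, C1qb in 41.3%, C1qa in 34.1% and Emr1 in 23.0%, while Spi1 was seen in 89.7%, Tyrobp in 88.9%, Fcer1g in 88.1%, Lyz2 in 81.7% and Cd68 in 53.2%.

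Counted per cell, the Csf1r-positive cells made a broad middle group and a group at the top. A median of 5 of the 10 genes was seen per Csf1r-positive cell and 0 per Csf1r-negative cell (4 and 0 with each cell thinned to 6000 UMIs). All 10 were seen in 26 Csf1r-positive cells, 8 or more in 41, and exactly 7 in 4, while 26 cells had 4, 20 had 5, 16 had 6 and 11 had 0. No Csf1r-negative cell had 9 or 10, and 393 of 649 had 0. The early genes were seen together most often: 111 of the 126 Csf1r-positive cells had at least 3 of them (88.1%, 81.1 to 93.2), and 61 had all 5. At least 3 late genes were seen in 43 (34.1%, 25.9 to 43.1), and all 5 in 28.

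**Figure D1:**
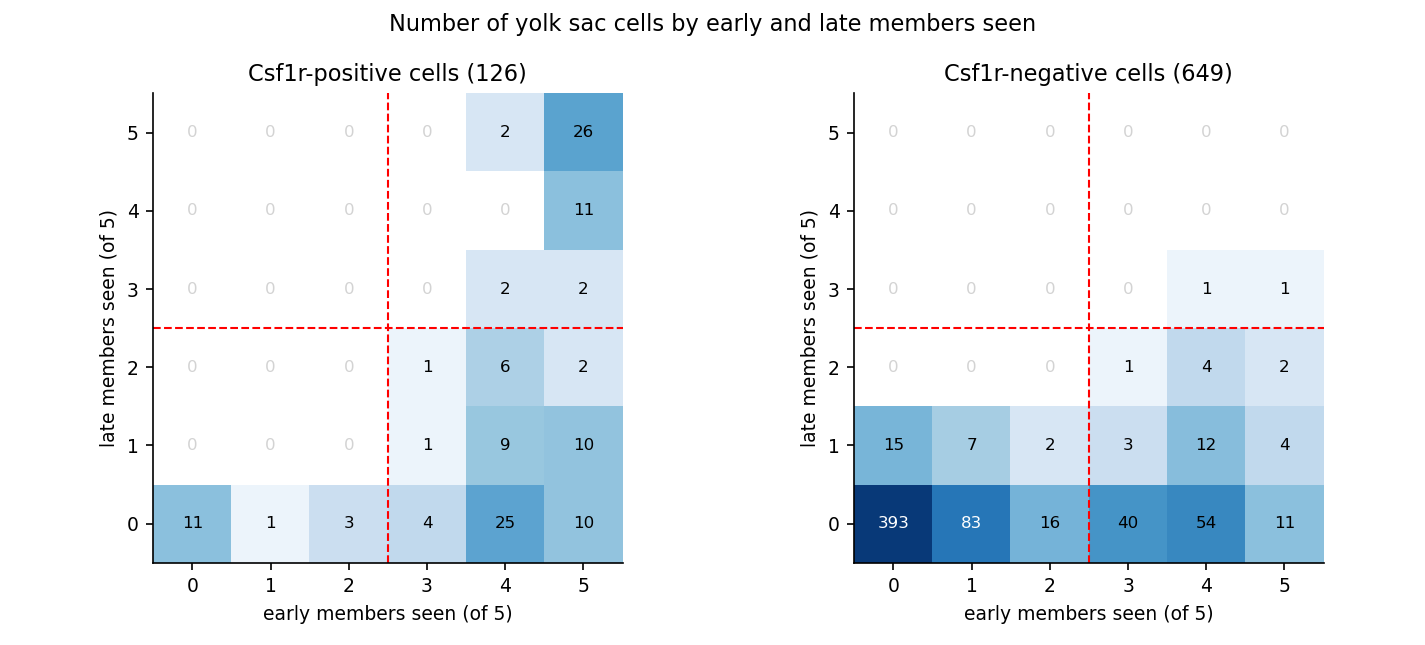
Number of yolk sac cells by how many of the 5 early genes (horizontal axis) and of the 5 late genes (vertical axis) had a UMI, for Csf1r-positive cells on the left and Csf1r-negative cells on the right. Dashed lines mark 3 genes. The upper left of each panel, past the lines, holds 0 cells: no cell had 3 late genes without 3 early ones, and 26 Csf1r-positive cells had all 10.

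Cells with several late genes also had the early ones. All 45 YS cells with at least 3 late genes also had at least 3 early genes (100%, 92.1 to 100), whereas 45 of the 244 cells with at least 3 early genes had 3 late ones (18.4%, 13.8 to 23.9). Csf1r was seen in 43 of those 45 cells (95.6%, 84.9 to 99.5), against 68 of the 199 cells with 3 early and under 3 late genes (34.2%, 27.6 to 41.2). The Csf1r-positive cells are called late-positive (3 or more late genes, 43 cells), early-only (3 or more early and under 3 late, 68 cells, 54.0%, 44.9 to 62.9) or other (15 cells, 11.9%, 6.82 to 18.9) below. The classes are ranges of a count and not types, and 9 cells with exactly 2 and 4 with exactly 3 late genes lay at the boundary. Median depth was 34560 UMIs in late-positive and 40653 UMIs in early-only cells.

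Of the 133 Csf1r-negative cells with 3 or more early genes (20.5% of 649), 2 also had 3 late genes. A cell with no Csf1r UMI may still hold the transcript, so Csf1r-negative says only that none was counted. Csf1r UMIs were few in the early-only cells, and the ranges overlapped. Late-positive cells had a median of 6 Csf1r UMIs (1 to 16), while early-only cells had a median of 1 (1 to 4). By level, Csf1r was 184 CPM in late-positive and 39.9 CPM in early-only cells. Both classes were chosen for at least 1 Csf1r UMI, and 131 cells with 3 early genes, fewer than 3 late genes and no Csf1r UMI are left out, so these levels are a description. Hmgxb3, on the other strand, read 4.84 CPM in late-positive and 6.47 CPM in early-only cells. Grouped by Csf1r UMIs, 4.08% of the 49 cells with 1 UMI were late-positive, 18.2% of the 33 with 2, and 79.5% of the 44 with 3 or more, at median depths of 40333, 40229 and 37497.5 UMIs.

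**Figure D2:**
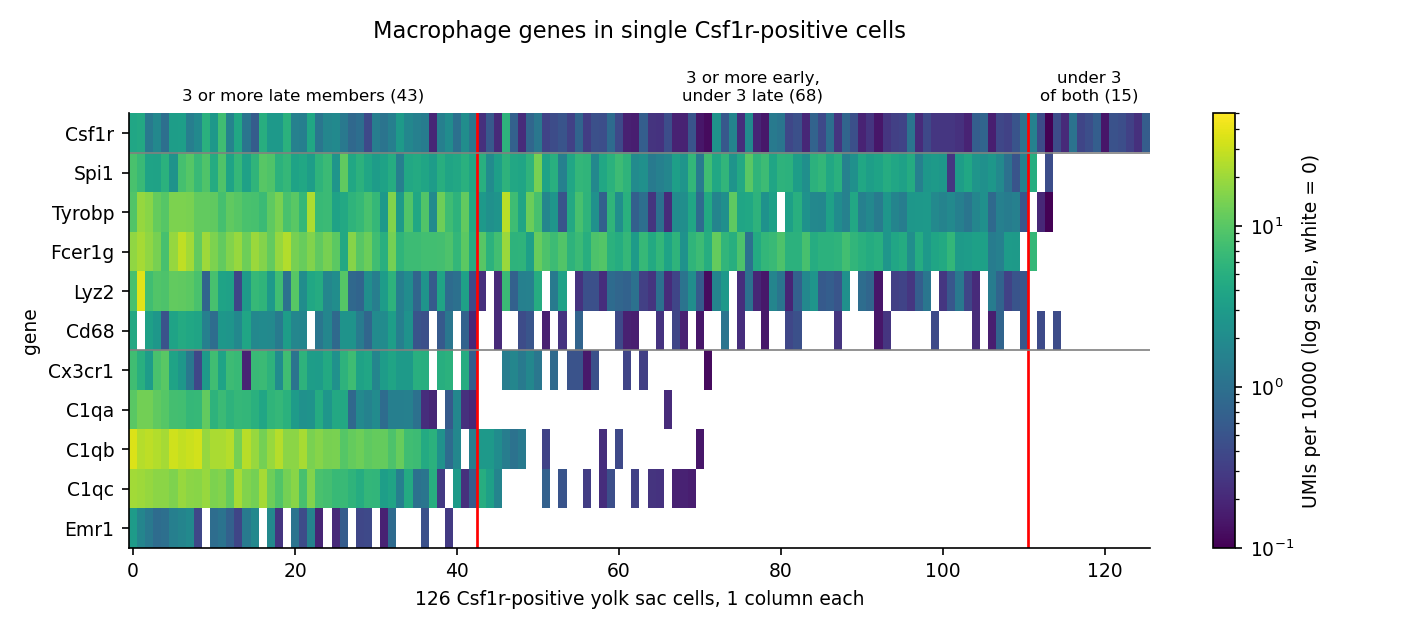
UMIs per 10000 (colour, log scale, white for 0) of Csf1r and the 10 genes (rows) in the 126 Csf1r-positive yolk sac cells (columns), with the 43 late-positive cells on the left, the 68 early-only cells in the middle and the 15 other cells on the right. Spi1 and Fcer1g run across both classes, while Emr1 stops at the boundary and C1qa was seen in 1 early-only cell.

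The early genes were not at one level across the classes. Late genes define the late-positive class, so their own levels there are a description, and both classes hold cells with 3 or more early genes by definition. Of the 10 genes 9 were at least 2-fold higher in late-positive than in early-only cells, against 10.3% of the 9690 genes compared, and 0 were 2-fold lower, against 11.3%. Among the 5 early genes, 4 passed 2-fold. Cd68 showed the widest gap: late-positive cells had a median of 5 UMIs (0 to 22) and early-only cells 0 (0 to 3), and the levels were 183 CPM (162 to 206) and 13.7 CPM (9.66 to 18.7), a ratio of 13.4 (9.52 to 19.4). Lyz2 had a median of 11 UMIs (1 to 53) in late-positive and 2 (0 to 14) in early-only cells, at 455 CPM (421 to 491) and 70.1 CPM (60.6 to 80.6), a ratio of 6.50 (5.53 to 7.66).

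The adaptor genes differed less. Tyrobp was 895 CPM (846 to 945) in late-positive and 278 CPM (259 to 299) in early-only cells (ratio 3.21, 2.94 to 3.52), with medians of 29 (2 to 72) and 9 UMIs (0 to 48). Fcer1g was 1239 CPM (1182 to 1297) in late-positive and 529 CPM (502 to 556) in early-only cells (2.34, 2.19 to 2.51), with medians of 34 (4 to 133) and 18.5 UMIs (0 to 51). Spi1 was nearly level at 498 CPM (462 to 536) in late-positive and 386 CPM (363 to 410) in early-only cells (1.29, 1.17 to 1.42), with medians of 17 (1 to 40) and 13 UMIs (1 to 63). The per-cell ranges of all 5 overlapped between the classes. By these ratios Lyz2 and Cd68, placed in the early set, stood closer to the late genes than Spi1 did.

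Within the late-positive cells the late genes varied widely from cell to cell. C1qb had a median of 41 UMIs per late-positive cell (0 to 138), C1qc 25 (0 to 94), C1qa 10 (0 to 43), Cx3cr1 10 (0 to 31) and Emr1 1 (0 to 10). Each C1q gene was seen in 42 of the 43 cells, Cx3cr1 in 41 and Emr1 in 29 (67.4%, 51.5 to 80.9). Emr1 was not seen in the 68 early-only cells, where 3 counts would be 1.08 CPM, and it was at least 60.9-fold higher in late-positive cells (65.6 CPM, 53.1 to 80.2). The 29 Csf1r-positive cells with Emr1 all had Cx3cr1 and a C1q gene (88.1 to 100%).

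Shares of cells move with depth, so each cell was also thinned to 6000 UMIs, which removed no cell. At that depth Spi1 was seen in 93.0% of late-positive and 89.7% of early-only cells, and Tyrobp in 100% and 77.9%. Lyz2 was seen in 79.1% of late-positive and 30.9% of early-only cells (100% and 88.2% unthinned), and Cd68 in 62.8% and 5.88% (90.7% and 38.2% unthinned). In late-positive cells the thinned shares of the late genes were 90.7% for C1qb, 86.0% for C1qc, 76.7% for Cx3cr1, 72.1% for C1qa and 27.9% for Emr1. Erythroid-like cells (median depth 33128 UMIs) gave unthinned shares between 0% for Lyz2 and Emr1 (0 of 153 allows up to 1.96%) and 7.84% for Fcer1g.

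**Figure D3:**
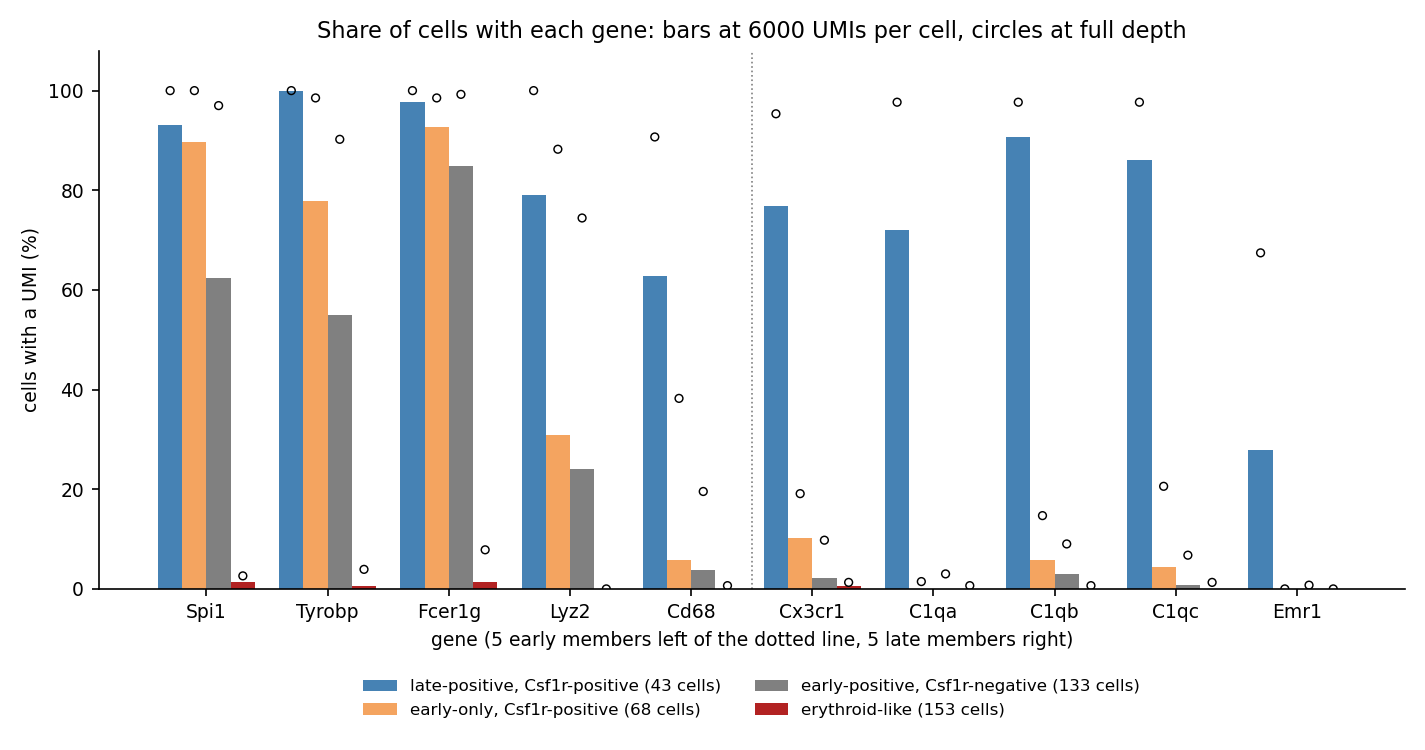
Share of cells with at least 1 UMI of each gene (vertical axis, percent) in late-positive and early-only Csf1r-positive cells, in Csf1r-negative cells with 3 or more early genes, and in erythroid-like cells. Bars show cells thinned to 6000 UMIs and circles full depth. Spi1 stayed at 93.0% and 89.7% in late-positive and early-only cells when thinned, while Cd68 differed most among the early genes (62.8% and 5.88%).

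Within the early-only cells, 39 had no late gene and 29 had 1 or 2. The late genes seen in those 29 were C1qc in 14 cells (48.3%, 29.4 to 67.5), Cx3cr1 in 13 (44.8%, 26.4 to 64.3), C1qb in 10 (34.5%, 17.9 to 54.3), C1qa in 1 (3.45%, 0.0873 to 17.8) and Emr1 in 0 (up to 10.3% by 3 counts). These 29 cells were chosen for having a late gene, so their shares cannot be set against a background. Over all 68 early-only cells, C1qc was seen in 20.6%, Cx3cr1 in 19.1% and C1qb in 14.7%. Free RNA as in the empty droplets would give 0.202% of cells for C1qc, 0.0600% for Cx3cr1 and 0.382% for C1qb. The erythroid-like cells gave 1.31%, 1.31% and 0.654% for these genes. Thinned to 6000 UMIs, the shares of the 68 cells were 4.41% for C1qc, 10.3% for Cx3cr1 and 5.88% for C1qb. Those of the 29 cells were 10.3% for C1qc, 24.1% for Cx3cr1, 13.8% for C1qb and 0% for C1qa. Many rested on a single UMI: 7 of the 14 cells with C1qc, 6 of the 13 with Cx3cr1 and 3 of the 10 with C1qb. A single cell of the 29 held 20 of the 57 C1qc UMIs and 12 of the 48 C1qb UMIs.

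The 3 C1q genes were also read as shares of their summed UMIs. In late-positive cells C1qa made up 13.8% (12.8 to 14.9) of 4219 C1q UMIs, C1qb 53.9% and C1qc 32.2%. In early-only cells C1qa gave 1 of 106 C1q UMIs (0.943%, 0.0239 to 5.14), C1qb 45.3% (35.6 to 55.2) and C1qc 53.8% (43.8 to 63.5). Without the cell of most C1q UMIs, the C1qa share was 1 of 74 (1.35%, 0.0342 to 7.30). The class limits this: a cell with all 3 C1q genes has 3 late genes and is not early-only. Nothing is therefore read from the low C1qa share of early-only cells. In empty droplets the C1qa share was 12.7% (8.95 to 17.3) of 268 C1q UMIs, and in Csf1r-negative cells it was 13.3% (6.58 to 23.2) of 75, both overlapping the late-positive cells. Over all 126 Csf1r-positive cells, without the classes, 41 of the 43 cells with C1qa had C1qb, while 41 of the 52 with C1qb had C1qa. C1qa also had fewer UMIs than C1qb in these cells (585 and 2323), and the part of this in the 2 shares was not tested. C1qb and C1qc were seen together in 46 cells.

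Cx3cr1 and the C1q genes overlapped in part. A C1q gene was seen in 45 of the 54 Csf1r-positive cells with Cx3cr1 (83.3%, 70.7 to 92.1), and Cx3cr1 in 45 of the 63 with a C1q gene (71.4%, 58.7 to 82.1). Among Csf1r-negative cells a C1q gene was seen in 36 of 649 (5.55%, 3.91 to 7.60). Across the 126 Csf1r-positive cells, which share 1 library and differ in depth, Pearson correlations of log-scaled levels were 0.93 to 0.96 between the C1q genes and 0.76 to 0.82 between these and Cx3cr1. The values with the C1q genes were 0.79 to 0.83 for Cd68, 0.71 to 0.74 for Lyz2 and 0.40 to 0.41 for Spi1, while Spi1 was closest to Fcer1g (0.75) and Tyrobp (0.70).

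Across the order no late gene, 1 or 2, and 3 or more, the early genes stood closer in the first pair of groups than in the last. Tyrobp was 234, 329 and 895 CPM in this order, Fcer1g 461, 606 and 1239 CPM, and Spi1 367, 408 and 498 CPM. Lyz2 was 63.5, 77.5 and 455 CPM and Cd68 12.8, 14.6 and 183 CPM. Between the first 2 groups the ratio of cells with 1 or 2 late genes over those with none was 1.41 (1.22 to 1.63) for Tyrobp, 1.31 (1.19 to 1.46) for Fcer1g and 1.11 (0.984 to 1.25) for Spi1. For Lyz2 it was 1.22 (0.913 to 1.63) and for Cd68 1.14 (0.569 to 2.27), both with an interval that includes 1. Csf1r was 38.4 CPM with 1 or 2 late genes and 41.2 CPM with none, in cells chosen for at least 1 Csf1r UMI, so nothing is read from these levels. Of 8818 genes 3.67% were at least 2-fold higher and 4.16% lower in the cells with 1 or 2 late genes. Of the 8 members compared, 3 were higher (C1qb, C1qc and Cx3cr1, which define the groups) and 0 lower. Median depth was 37351, 46491 and 34560 UMIs in the order of the 3 groups.

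**Figure D4:**
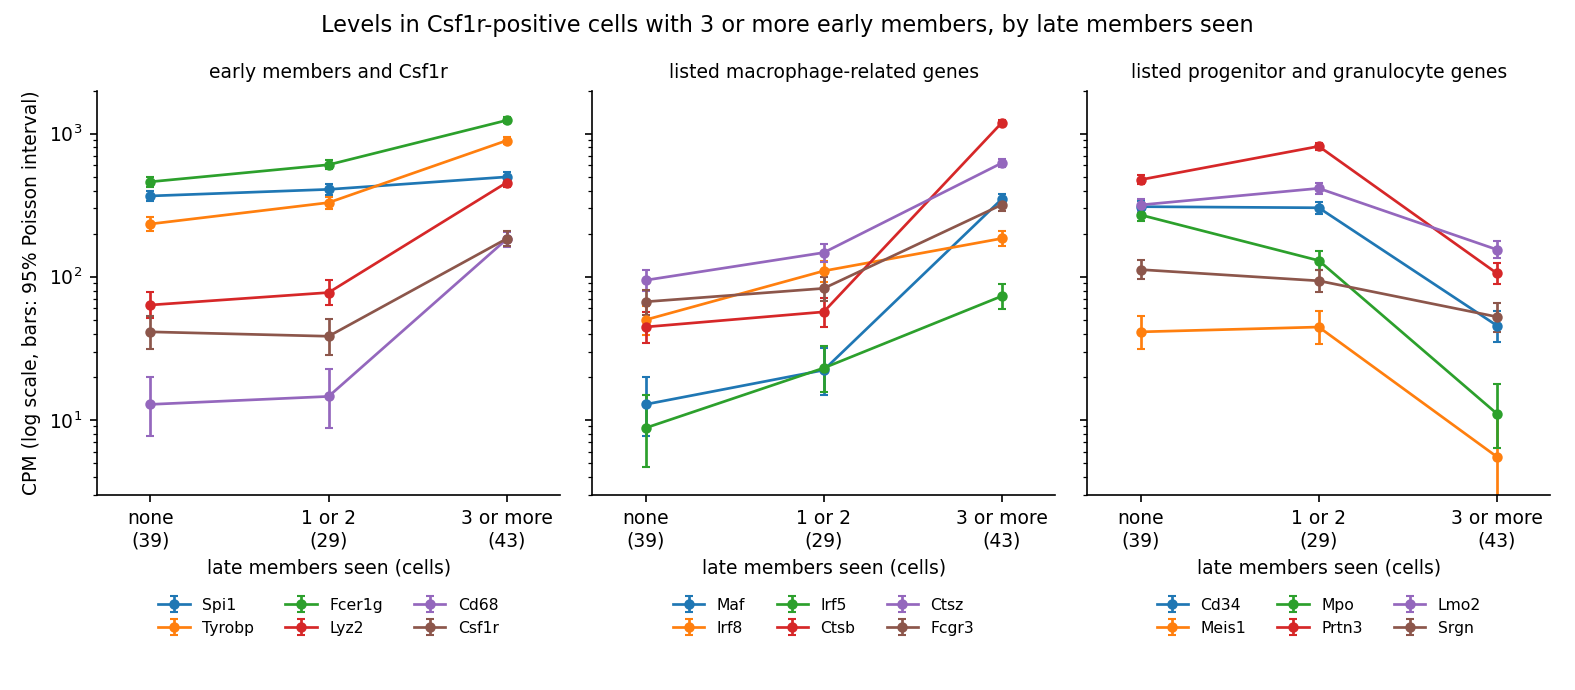
Levels (CPM, log scale, with 95% Poisson intervals) in Csf1r-positive cells with 3 or more early genes, grouped by the number of late genes seen: none (39 cells), 1 or 2 (29) and 3 or more (43). Cd68 and Lyz2 were close in the first 2 groups and highest in the last (Cd68 12.8, 14.6 and 183 CPM), while Spi1 was 367, 408 and 498 CPM and Cd34 309, 303 and 45.6 CPM. The listed genes drawn beside the early genes and Csf1r were picked, and listed genes that were level or went the other way are not drawn. The progenitor marker Ptprc, not drawn, was 31.1, 46.8 and 63.6 CPM.

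Csf1r-negative cells with 3 or more early genes (133 cells, median depth 42375 UMIs) lay within 2.27-fold of the early-only cells in the early genes. Early-only cells were 1.69-fold higher in Spi1 (1.56 to 1.83), at 386 CPM against 228 CPM, 1.95-fold in Tyrobp (1.77 to 2.16), 1.29-fold in Fcer1g (1.20 to 1.37), 1.35-fold in Lyz2 (1.12 to 1.63) and 2.27-fold in Cd68 (1.39 to 3.74). Of 10628 genes 3.84% were at least 2-fold higher and 5.02% lower in the early-only cells. Of the 8 members compared, 3 were higher, Cd68, C1qb (3.27, 2.02 to 5.37) and C1qc (5.35, 3.20 to 9.30), and 0 lower. The groups are unlike in the late genes. Early-only cells have under 3 by definition, while the 133 cells include 2 with 3, which held 19 and 10 of their 56 C1q UMIs. A single early-only cell held 32 of the 106 C1q UMIs of that class. Erythroid markers summed to 346 CPM in the early-only and 2486 CPM in these Csf1r-negative cells, where 1 cell held 77.8% of the marker UMIs and the rest came to 561 CPM. Of 9 megakaryocyte markers compared, 4 were 2-fold lower in the early-only cells, and the list summed to 179 CPM in early-only and 380 CPM in Csf1r-negative cells. The cells also lay in different clusters: 36 of the early-only cells were in the progenitor-like, 31 in the granulocyte and mast cell-like and 0 in the megakaryocyte-like cluster, against 70, 35 and 28 of the Csf1r-negative cells. Spi1 was 467 CPM in the granulocyte and mast cell-like cluster and 39.0 CPM in the megakaryocyte-like cluster. The part of these markers and clusters in the ratios was not tested.

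To see where in the yolk sac the genes lay, cells were clustered without the 10 genes and Csf1r. A cluster of 40 cells was macrophage-like, the same 40 cells as in a clustering with these genes. The name, however, was given with these genes counted. All 5 macrophage markers among the 10 leading genes of the cluster belong to the genes described, so the name is not independent of their levels. Of the 12 macrophage markers 8 are Csf1r and 7 of the 10 genes. The other 4 were higher there than in the remaining YS cells: the Fc receptor gene Fcgr1 was 144 CPM against 1.09 CPM, the mannose receptor gene Mrc1 233 CPM against 8.48 CPM, the cathepsin gene Ctss 88.7 CPM against 0.0437 CPM and the efferocytosis receptor gene Mertk 10.8 CPM against 0.830 CPM. All 40 cells were Csf1r-positive and late-positive. They held 92.9% of the late-gene UMIs of the YS cells and 34.4% of the early-gene UMIs. In them Spi1 was 513 CPM, Tyrobp 954 CPM, Fcer1g 1312 CPM, Lyz2 501 CPM, Cd68 204 CPM, Cx3cr1 407 CPM, C1qa 442 CPM, C1qb 1722 CPM, C1qc 1016 CPM and Emr1 73.3 CPM.

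The early genes were spread over further blood clusters. The hematopoietic progenitor-like cluster (113 cells, led by Cd34, Dnmt3b and Ctla2a) held 31.7% of the early-gene UMIs, and 38 of its cells were Csf1r-positive, 36 of them early-only. The granulocyte and mast cell-like cluster (68 cells) held 29.0%, with 33 Csf1r-positive cells, 31 of them early-only. Only 3 of its 12 markers were enriched, and Prtn3, Mpo and Hp led it. Its name is that of the marker list and does not say that it held mature granulocytes or mast cells. Of the list, Ctsg, S100a9, Mcpt8 and Gzmb had 0 UMIs in Csf1r-positive and in Csf1r-negative cells. The remaining late-positive cells were 2 progenitor-like and 1 granulocyte and mast cell-like cell. Spi1 was 467 CPM (441 to 494) in the granulocyte and mast cell-like and 240 CPM (226 to 255) in the progenitor-like cluster, and it was seen in 68 of 68 and 110 of 113 cells. The few late UMIs were spread unevenly over these clusters: Cx3cr1 was seen in 21 of 68 granulocyte and mast cell-like cells (30.9%, 20.2 to 43.3) and in 5 of 113 progenitor-like cells (4.42%, 1.45 to 10.0), while C1qc was seen in 6 of 68 (8.82%, 3.31 to 18.2) and 20 of 113 (17.7%, 11.2 to 26.0). The 9 C1qa UMIs of the granulocyte and mast cell-like cluster were in 1 cell. Median depths of these clusters were 41856.5 and 40333 UMIs.

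Megakaryocyte-like cells (59 cells, median depth 42495 UMIs) had 0 cells with Csf1r, and 28 of them had 3 or more early genes. Fcer1g was 125 CPM (111 to 139) there, Spi1 39.0 CPM (31.6 to 47.6) and Tyrobp 34.2 CPM (27.3 to 42.3). Cd68 was at 0 UMIs there. Outside blood, Cd68 was 21.4 CPM (12.2 to 34.8) in extraembryonic endoderm-like cells, where Spi1 was 1.34 CPM and Lyz2 and all 5 late genes had 0 UMIs. Csf1r was seen in 7 of these 27 cells (25.9%, 11.1 to 46.3), at 8 UMIs in all, and 5 of the 7 had none of the 10 genes. The opposite-strand gene Hmgxb3 was 13.4 CPM (6.41 to 24.6) in these cells and 4.85 CPM (3.92 to 5.93) in Csf1r-negative cells, and its part in the Csf1r UMIs was not tested.

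**Figure D5:**
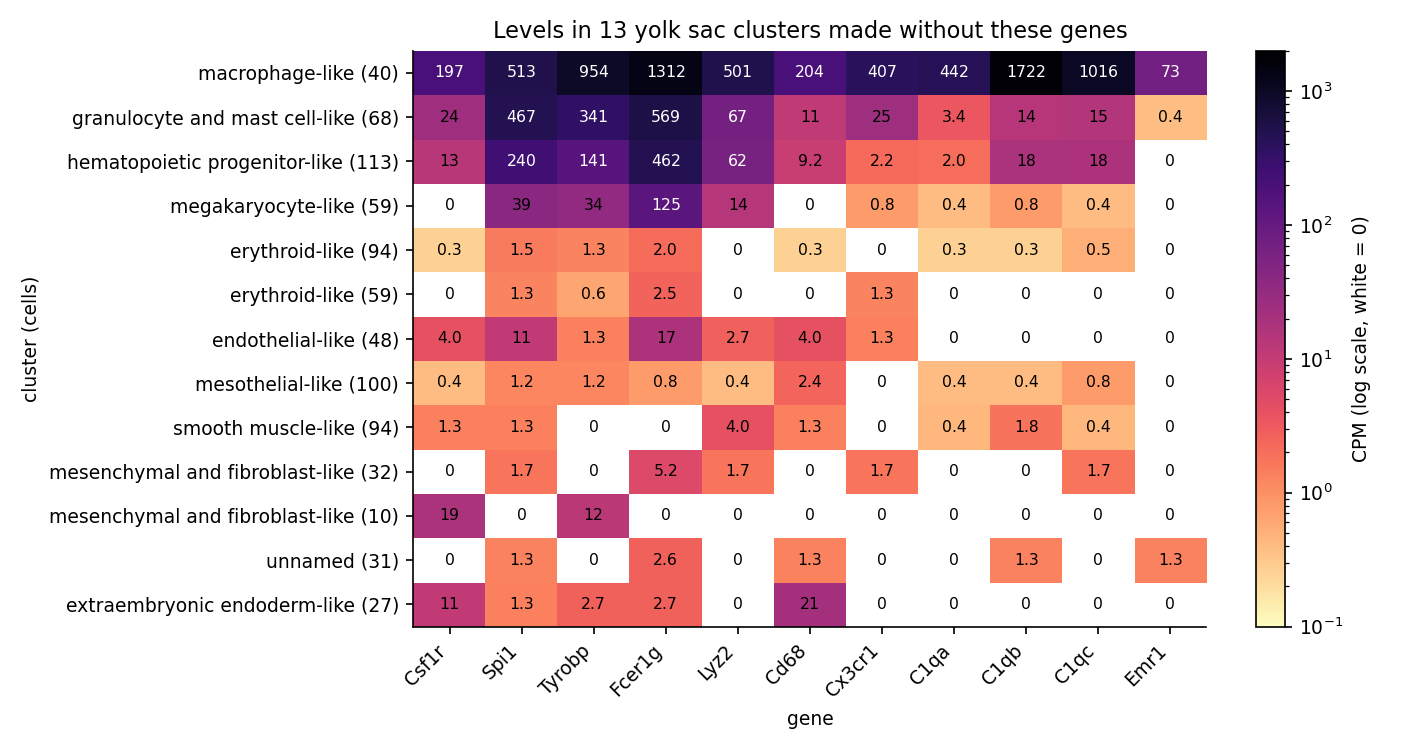
Levels (CPM, colour on a log scale and printed, white for 0) of Csf1r and the 10 genes (columns) in 13 yolk sac clusters (rows, with cell numbers) made without these genes. Names are those of marker lists, and the macrophage list includes Csf1r and most of the 10 genes. Late genes were high in the macrophage-like row (C1qb 1722 CPM), while Spi1, Tyrobp and Fcer1g were also high in the granulocyte and mast cell-like and progenitor-like rows (Spi1 467 and 240 CPM).

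Other genes were read from lists of the pathway and of cell types, and are given by how many members were at least 2-fold higher or lower in late-positive than in early-only cells, where 10.3% of the 9690 genes compared were higher and 11.3% lower. Of 16 phagocytic and pattern receptor genes compared, 15 were higher and 0 lower (median log2 ratio 3.25, against -0.09 over all genes compared). Mrc1 was 209 CPM and 3.59 CPM, Trem2, a receptor that signals through DAP12, 54.6 CPM and 0.719 CPM, and Timd4, a phosphatidylserine receptor, 33.2 CPM and 0 UMIs. The receptor gene Itgb2 had a ratio of 1.92 (1.17 to 3.16). Marco and Cd163 had 0 UMIs in both. Of 15 lysosome genes 12 were higher, with Ctsb, a cathepsin gene, at 1191 CPM in late-positive and 50.3 CPM in early-only cells and Lgmn, the gene of legumain, at 343 CPM and 4.67 CPM. Ctsd, Lamp1 and Npc2 stayed under 2-fold, with ratios of 1.66, 1.92 and 1.75.

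Of 10 signaling genes downstream of the ITAM adaptors that were compared, 4 were 2-fold higher in late-positive cells and 0 lower, where 10.3% of all genes were higher and 11.3% lower (median log2 ratio 0.54, against -0.09 over all genes). Among the 4 were Lyn (2.19), Lcp2 (2.10) and Blnk (23.1, 3.41 to 986, on 12 UMIs against 1). The kinase gene Btk was 42.1 CPM in late-positive and 40.6 CPM in early-only cells, the phosphatase gene Ptpn6 165 CPM and 144 CPM, and the kinase gene Syk had a ratio of 1.21 (0.734 to 1.97). Against Csf1r-negative cells 11 of 11 of these genes were at least 2-fold higher in Csf1r-positive cells, where 9.41% of all genes were. Most Csf1r-negative cells, 516 of 649, had under 3 early genes. Against Csf1r-negative cells with 3 or more early genes, 1 of 10 was 2-fold higher in early-only cells and 0 lower. Of all genes 3.84% were higher and 5.02% lower. The list summed to 377 CPM in early-only and 330 CPM in those Csf1r-negative cells.

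Among 14 myeloid transcription factor genes 6 were 2-fold higher in late-positive than in early-only cells and 0 lower, against 10.3% and 11.3% of all genes. Maf was 349 CPM in late-positive and 17.2 CPM in early-only cells (20.2, 15.0 to 27.8), Irf8, a factor needed for microglia, 185 CPM and 78.0 CPM, and Irf5 73.2 CPM and 15.5 CPM. Cebpb (1.24) and Cebpa (1.22) were nearly level, like Spi1, and Runx1 was 85.0 CPM and 113 CPM. Across no late gene, 1 or 2, and 3 or more, Irf8 was 49.99, 110 and 185 CPM and Irf5 8.78, 23.0 and 73.2 CPM, while Maf was 12.8, 22.3 and 349 CPM. The list as a whole did not rise in the first step. Of 11 of its genes compared there, 2 were 2-fold higher with 1 or 2 late genes and 1 lower. Of all genes 3.67% were higher and 4.16% lower. The median log2 ratio of the list was 0.10.

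All 4 microglia genes that could be compared were higher in late-positive cells, among them P2ry13, Gpr34 and P2ry12, which was 25.6 CPM in late-positive and 0.719 CPM in early-only cells. Of all genes compared 10.3% were higher, for this list and for the lists that follow. Sall1, a transcription factor of microglia in the brain, had 0 UMIs in both, and Tmem119 had 4 UMIs in late-positive cells. Of the complement genes other than C1q, 4 of 4 compared were higher, among them the receptor genes C3ar1 (99.5 CPM and 0.359 CPM) and C5ar1 and the properdin gene Cfp, while C3 and C4b had 0 UMIs in late-positive cells. Of 10 chemokine and cytokine genes 8 were higher, among them Ccl2, Ccl24 and Pf4 (252 CPM and 13.3 CPM), and Il1b was 11.1 CPM and 16.9 CPM. Of 2 MHC class II genes compared, 0 were 2-fold higher or lower, with Cd74 at 6.91 CPM and 3.59 CPM. None of 10 proliferation genes passed 2-fold in either direction, with Mki67 at 85.7 CPM in late-positive and 63.6 CPM in early-only cells.

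Markers of other cell types moved with the classes as well. Of 10 hematopoietic progenitor markers 8 were at least 2-fold lower in late-positive than in early-only cells and 0 higher, against 11.3% and 10.3% of all genes compared. Their summed level per cell ran from 0 to 1162 CPM in late-positive and from 326 to 2840 CPM in early-only cells. Kit, the stem cell factor receptor gene, was 1.38 CPM in late-positive and 13.7 CPM in early-only cells, Cd34 45.6 CPM and 306 CPM, Gata2 0.691 CPM and 25.9 CPM and Myb 5.53 CPM and 25.2 CPM, while Ptprc, the CD45 gene, was 63.6 CPM and 38.4 CPM. Of 4 granulocyte and mast cell markers compared, 2 were lower, Mpo at 11.1 CPM and 204 CPM and Prtn3 at 106 CPM and 635 CPM. The sum of this list ran from 0 to 722 CPM per late-positive cell and from 0 to 6999 CPM per early-only cell, with S100a8, S100a9, Ctsg, Gzmb, Mcpt8 and Ly6c2 at 0 UMIs in both classes. Of 6 megakaryocyte markers 5 were lower and Pf4 higher, and of 10 endothelial markers 7 were lower and 1 higher. All 7 mesenchymal and fibroblast markers and all 4 mesothelial markers compared were lower in late-positive cells. Of the UMIs of these lists in early-only cells, 1 cell held 84.2% of the mesenchymal and 65.0% of the mesothelial ones. The part of these markers in the differences between the classes was not tested.

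In the cells with 1 or 2 late genes, Cd34 (303 CPM, against 309 CPM with none) and Prtn3 (815 CPM, against 476 CPM) were close to or above the level of the cells with none, and Mpo was 130 CPM against 270 CPM. Mesenchymal and fibroblast markers summed to 311 CPM in them and 29.0 CPM in the cells with none, and 377 of the 405 UMIs (93.1%) were in 1 cell. Without that cell, Lyz2 was 79.2 CPM in the group, Cd68 15.0 CPM and Tyrobp 339 CPM, against 77.5, 14.6 and 329 CPM with it.

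By a rule on size, the genes with the largest ratios in favour of late-positive cells were Ccl7, Aif1, Ccl2, Ms4a6c, Lgmn, Fcgrt, Dab2 and Mrc1. Aif1, which encodes the microglial and macrophage protein IBA1, was 226 CPM in late-positive and 1.44 CPM in early-only cells (157, 60.8 to 580), and it was seen in 39 of 43 and 2 of 68 cells. Dab2, an endocytic adaptor gene, was 591 CPM and 10.1 CPM. Ccl7 and Ccl2, chemokine genes, were seen in 13 and 19 of the 43 late-positive cells. In favour of early-only cells the genes were Gpr56, Mpo, Hmga2, Tsc22d1, Car2, Vamp5, Sparc and Cd34. Gpr56, an adhesion receptor gene of hematopoietic stem and progenitor cells, was 2.76 CPM in late-positive and 129 CPM in early-only cells, and Hmga2, a chromatin protein gene of fetal progenitors, 33.2 CPM and 392 CPM. Both stood near the early-only level in Csf1r-negative cells with 3 early genes, at 149.7 CPM and 317 CPM.

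The 10 other genes most like the mean of the 10 across the 775 YS cells, by Pearson correlation of log-scaled levels, were Lst1 (0.84), Csf1r (0.82), Ms4a6c (0.82), Fcgr3 (0.81), Ms4a6b (0.81), Aif1 (0.80), Hpgds (0.80), Coro1a (0.79), C3ar1 (0.78) and Fcgr1 (0.78). They differed in which set they followed. Coro1a had a correlation of 0.91 with the early genes and 0.48 with the late genes, while Ms4a6c had 0.64 with the early and 0.91 with the late genes. The cells share 1 library and differ in depth and in the mix of types.

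In the EB library the 5 late genes had 0 UMIs in 1878 cells and Csf1r had 2. All 10 genes were at least 2-fold higher over all YS cells than over all EB cells, where 21.5% of the 15621 genes compared were higher by that much and 18.5% lower. C1qb was 97.6 CPM over all YS cells and at least 1649-fold higher than in EB cells, and Spi1 was 128 CPM and 0.651 CPM (197, 140 to 287). Cd68 was the exception in size, at 15.1 CPM in YS and 4.70 CPM in EB cells (3.21, 2.72 to 3.80), with a UMI in 10.3% of EB cells. Culture and tissue also differ in stage, dissociation and sorting, which cannot be told apart from the source.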

How the data were processed

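The authors deposited, for the YS and the EB library, whole-number UMI counts that were not normalized, made on mm10 per the submitters' processing notes. Aligner, counting program and annotation were not named. Both tables held 33456 genes in 737280 barcodes, empty droplets included. Barcodes with at least 6537 UMIs in YS or 6172 UMIs in EB and at most 10% mitochondrial UMIs were kept: 801 YS barcodes reached the minimum and 26 failed the limit (EB: 2020 and 142). Doublets were kept, and Scrublet marked 2 of 775 YS cells.

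The 10 genes and all lists were chosen with earlier results of these data known. Named genes were the 10 genes, Csf1r, members of the lists, the 10 most similar genes, and the 8 of largest late-positive to early-only ratio each way, the higher class having 100 CPM and 30 UMIs or more. UMIs were summed per group and compared for genes with at least 10 UMIs, with 0 set to a floor of 3 counts over the group. Clusters came from Leiden clustering (scanpy 1.11.5, leidenalg 0.10.2, 2000 variable genes, 30 components, 15 neighbours, resolution 1) and were named from marker lists. Python 3.11.15, numpy 2.4.6 and scipy 1.17.1 were used. Ahsp and C1s were not matched. Coordinates are from GENCODE M21. The intervals were tested on simulated Poisson counts, the model they assume, so spread between cells did not enter that test. Alternatives changed the cell filters, depth, doublets, class limits and clustering.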

Additional observations from a re-analysis of the deposited data

Results flagged for a closer look

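Barcodes with 1000 UMIs or more but fewer than the minimum were used in no comparison. Of 516 such YS barcodes 412 were over the mitochondrial limit. A Csf1r UMI was seen in 10 of the 516, and 3 had at least 3 late genes, 2 of them over the mitochondrial limit. Of 1591 such EB barcodes 1451 were over the limit, 1 had a Csf1r UMI and 0 had 3 late genes. Of the 26 YS barcodes that reached the UMI minimum but were over the mitochondrial limit, 3 had Csf1r and 0 had 3 late genes.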

How the results depend on the processing

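Of 75 recomputed values for 9 results, 9 moved. The other 66 stayed within the interval of the main value or, for a count of genes, within 1.5 times it. With each cell thinned to 6000 UMIs, a Csf1r UMI was seen in 7.10% of YS cells, 43.6% of those were late-positive and 38.2% early-only, and 24.2% of cells with 3 early genes had 3 late ones. With 2 Csf1r UMIs asked for, 9.94% of YS cells were Csf1r-positive, a median of 8 members was seen in them, 53.2% were late-positive and 41.6% early-only. With 2 UMIs asked for per gene the median was 4. The split of Csf1r-positive cells thus moves with the Csf1r threshold. The share of late-positive cells that had the early genes was 100% under other cell filters, thinning, other thresholds and other sets. At 4-fold, 9 of 10 genes were higher in YS than in EB cells. No paired analysis was possible because each source is 1 library, and for the same reason no replicate could be left out. Emr1 values rest on 97 UMIs in all YS cells, and depth also limits shares of cells with a UMI: Cd68 was seen in 38.2% of early-only cells at full depth and in 5.88% when thinned.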
